A study of Arabidopsis thaliana with 48 samples.

Results

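The ends described here are 18S rRNA 3′ ends that stop 1 or 2 nt short of the D site, the position at which the mature 18S rRNA ends. They were chosen by position alone: every read whose templated part ended at position 1890 (called -1) or 1889 (called -2) of the authors' 45S rDNA reference, with any nontemplated tail of 0 to 10 nt. This gave 22 of the 330 combinations of end position and tail length counted in each library, and 2 of the 30 end positions. The D site was position 1891, the most frequent untailed end in all 48 libraries. Together the 22 combinations held 7618866 of 149915498 reads (5.08%). A level is given throughout as a percentage of the untailed D-site reads of the same library, so a change in mature 18S rRNA would move it as well.

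The reads came from 18S-ENDseq, in which rRNA is ligated into a circle, reverse-transcribed from inside 18S rRNA and sequenced across the junction of its 5′ and 3′ ends. Per the methods, molecules whose 5′ end was that of mature 18S rRNA were kept. Seedlings 18 days old of 4 genotypes were used: hot3-2 dcl2-1 dcl4-2 (here hot3-2 dcl2 dcl4), hot3-2, dcl2-1 dcl4-2 (here dcl2 dcl4) and the wild type Col-0 (WT). RNA was taken from nonpolysome fractions of a sucrose gradient, from its polysome fractions and from the total lysate, giving 12 groups of 4 libraries. The allele hot3-2 is a T-DNA insertion in the Col-0 background, and 1 allele of HOT3 was sequenced. All lysates contained cycloheximide and chloramphenicol. Per the methods, total RNA was taken from the lysate before it was loaded, and the gradient had its own buffer, so that the run through the gradient and the fraction cannot be told apart where a gradient fraction is set against the total lysate. The study calls the libraries biological replicates without saying how the plants were divided, and p-values measure the spread between these libraries, which may in part be technical. Whole seedlings hold many cell types, and fewer cells of a type and less RNA per cell cannot be told apart.

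In eukaryotes the last step of 18S rRNA maturation is the cut at the D site, made in the cytoplasm by the endonuclease NOB1, which separates 18S rRNA from the remainder of internal transcribed spacer 1 (ITS1). In yeast, eIF5B stimulates this cut when it joins the 40S precursor to a 60S subunit in a translation-like test of the new subunit. HOT3 encodes the Arabidopsis eIF5B1, a GTPase of translation initiation. DCL2 and DCL4 are Dicer-like nucleases that make small interfering RNAs from double-stranded RNA. An RNA end short of a cut site can come from a 3′ to 5′ exonuclease or from a cut at another place, and terminal nucleotidyltransferases can add untemplated A or U to such ends.

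The last bases of 18S rRNA are shown because they fix what a short end and a tail can look like. In TAIR10.1 the 2 annotated nuclear 18S rRNA genes, AT2G01010 (chr2:3706-5513, plus strand) and AT3G41768 (chr3:14197677-14199484, plus strand), were both 1808 bases long and identical over the stretch shown. It covers the last 20 bases of 18S rRNA and the first 10 of ITS1 (chr2:5494-5523 and chr3:14199465-14199494), all of it transcribed spacer or 18S rRNA exon with no coding sequence. In the precursor the capitals mark the bases at -2, -1 and the D site. In the other lines the capital marks the last base of the end.
Precursor: aacctgcggaaggatcaTTGtcgatacctg
End at the D site: aacctgcggaaggatcattG
End at -1: aacctgcggaaggatcatT
End at -2: aacctgcggaaggatcaT
End at -3: aacctgcggaaggatcA
A tail at -1 cannot begin with G, and a tail at -2 cannot begin with T (U in RNA), since the read would then be counted 1 position further along. For the same reason a U added to an end at -3 would be counted as an untailed end at -2. A tail of 1 nt at -1, or of 2 nt at -2, has the length of mature 18S rRNA, so that a mature molecule read with a changed last base, or changed last bases, falls into the same combination. In the same way, a precursor that reaches into ITS1 and is read with such a changed base can fall among the longer tails. Only the lengths of tails, not their bases, enter the values below.

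The libraries held 1815545 to 6468532 reads (median 2958198), of which 71.0% to 94.5% were untailed D-site reads. In nonpolysome RNA this share was 71.0% to 79.9% in hot3-2 and 90.3% to 91.7% in WT. The part of that difference in the changes of level between these groups was not tested. Untailed ends at -1 were counted 13798 to 91708 times per library, and those at -2 62519 to 221244 times. The Wilson 95% intervals therefore had half-widths of at most 1.67% of the value at -1 and 0.802% at -2. They cover counting error only, because PCR reads without molecular identifiers are not independent molecules. The loss of HOT3, DCL2 or DCL4 transcripts cannot be read from 18S rRNA ends, so the genotype labels were not checked.

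The end 2 nt short was the common one. Untailed reads at -2 stood at 3.46% to 5.80% of the D-site reads over the 48 libraries (median 3.90%), and those at -1 at 0.497% to 5.52% (median 0.971%). In every library there were more untailed reads at -2 than at -1, by a ratio of 1.05 to 7.16. The neighbouring untailed ends were rarer, with medians of 0.200% at -3, 0.318% at +1 and 0.363% at +2. Tailed reads at the short ends stood at 0.205% to 0.356% of the D-site reads for -1 and 0.112% to 0.231% for -2.

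The first question was whether loss of HOT3 moved the ends just short of the D site. In hot3-2 over WT the untailed ends at -1 rose in the nonpolysome fractions, and no other untailed value of the short ends passed the test. In those fractions untailed -1 ends in hot3-2 stood at 5.21%, 2.703%, 5.52% and 3.12% in replicates 1 to 4, against 1.70%, 1.71%, 1.83% and 1.97% in WT. The lowest hot3-2 library lay above the highest of WT, but replicates 1 and 3 of hot3-2 were far above its replicates 2 and 4. The mean was 4.14% ± 1.43 in hot3-2 and 1.80% ± 0.127 in WT (SD, n = 4 each). The log2 fold change relative to D-site reads was 1.20 (SE 0.23), with an adjusted p of 0.000502 in edgeR's quasi-likelihood test over 29 untailed positions. It was 1.60 with replicates 1 and 3 alone and 0.66 with replicates 2 and 4 alone, where its adjusted p was 0.0114. Scaled by TMM, which sets the typical end position to no change, the same value was -1.52, because most other ends rose far more.

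In the polysome fractions the -1 ends stood at 1.08%, 0.713%, 1.25% and 0.908% in hot3-2, against 0.716%, 0.747%, 0.857% and 1.10% in WT. In total lysate they stood at 0.702%, 0.538%, 0.895% and 0.879% in hot3-2, against 0.765%, 0.497%, 0.962% and 0.908% in WT. The libraries of the 2 genotypes overlapped in both, and the log2 fold changes of 0.21 and -0.06 did not pass the test (adjusted p = 0.263 and 0.823, edgeR). With replicates 1 and 3 alone the polysome value was 0.57 and passed it (adjusted p = 0.00504). With replicates 2 and 4 alone it was -0.19 and did not.

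At -2 no comparison of hot3-2 with WT passed the test. In nonpolysome fractions these ends stood at 5.68%, 4.38%, 5.80% and 4.71% in hot3-2, against 4.31%, 4.36%, 4.51% and 4.61% in WT. Replicates 1 and 3 of hot3-2 were again the high ones, replicate 2 lay within the range of WT, and the log2 fold change was 0.21 (SE 0.13, adjusted p = 0.131, edgeR). It was 0.38 with replicates 1 and 3 alone, where it passed the test (adjusted p = 0.00252), and 0.02 with replicates 2 and 4 alone (adjusted p = 0.861). With any single library left out it lay between 0.15 and 0.28. In polysome fractions the means were 3.85% ± 0.368 in hot3-2 and 3.76% ± 0.185 in WT, and in total lysate 3.64% ± 0.163 in hot3-2 and 3.83% ± 0.219 in WT (SD, n = 4 each). Those log2 fold changes were 0.03 and -0.08.

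**Figure D1:**
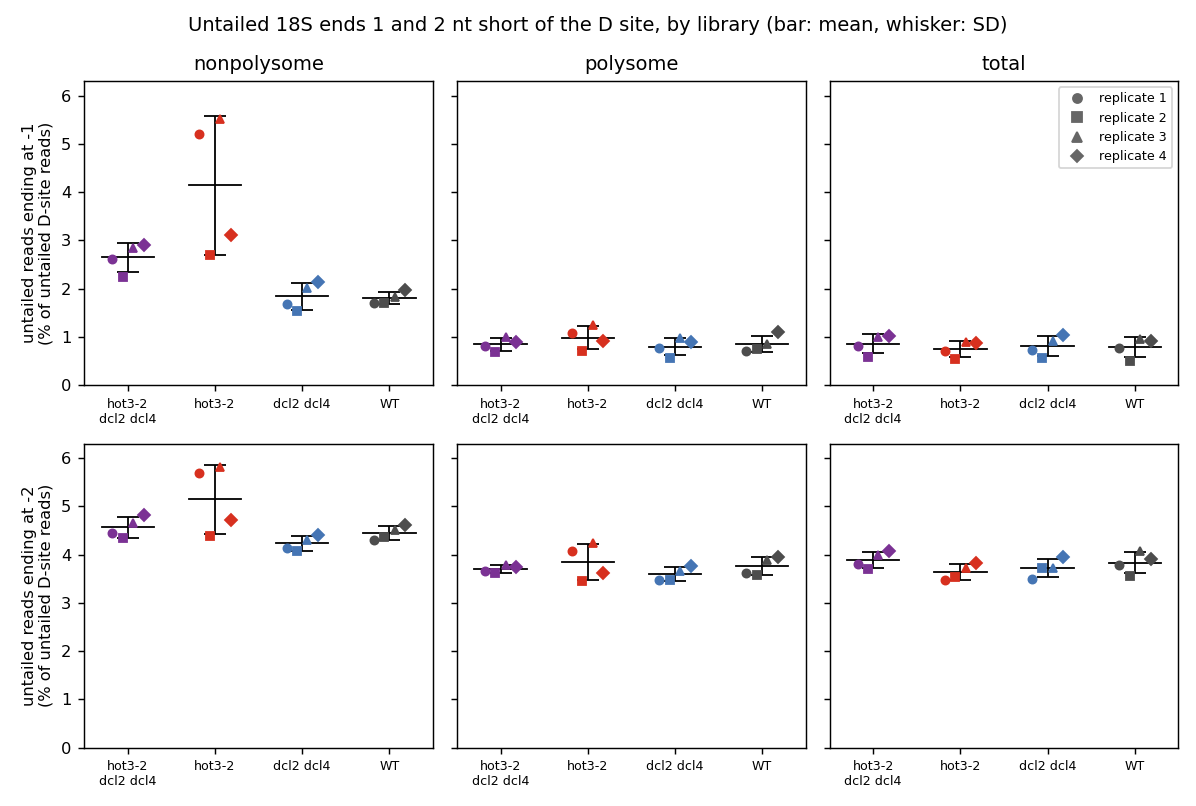
Untailed reads ending at -1 (upper panels) and -2 (lower panels) as a percentage of untailed D-site reads, for the 4 libraries of each genotype in nonpolysome, polysome and total RNA, with the mean as a bar and the SD as a whisker. At -1 the nonpolysome libraries lie between 1.53% and 5.52%, above all others (0.497% to 1.25%), and hot3-2 replicates 1 and 3 stand highest at 5.21% and 5.52%.

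In plants that lack DCL2 and DCL4, loss of HOT3 was again accompanied by higher untailed ends at -1 in the nonpolysome fractions. In nonpolysome fractions untailed -1 ends stood at 2.62%, 2.25%, 2.85% and 2.90% in hot3-2 dcl2 dcl4, against 1.69%, 1.53%, 2.01% and 2.13% in dcl2 dcl4. The groups did not overlap, and the libraries of hot3-2 dcl2 dcl4 lay closer together than those of hot3-2. The log2 fold change was 0.53 (SE 0.12, adjusted p = 0.000205, edgeR) and lay between 0.45 and 0.60 when any single library was left out. TMM scaling turned it to -1.73. In polysome fractions it was 0.08 (adjusted p = 0.628) and in total lysate 0.08 (adjusted p = 0.666). At -2 the log2 fold changes were 0.11, 0.04 and 0.06 in nonpolysome, polysome and total RNA, and none passed the test. With the replicate number as a block, which the pairing check allowed for the nonpolysome libraries, the value of 0.11 passed it (adjusted p = 1.04e-09), although the libraries overlapped.

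Over both backgrounds 2 of 12 values of the untailed short ends were called, both of them -1 in nonpolysome RNA. Most other untailed ends were called in the same fits, so being called is not particular to -1. In hot3-2 over WT, 93.1% of the positions were called in nonpolysome, 75.9% in polysome and 82.8% in total RNA, all of them higher. In hot3-2 dcl2 dcl4 over dcl2 dcl4 the shares were 93.1%, 82.8% and 75.9%. The median log2 fold change over all 29 positions was 2.68, 1.97 and 2.38 in nonpolysome, polysome and total RNA of hot3-2 over WT. Against that, -2 had the lowest of the 29 values in all 3 fractions, and -1 the 5th lowest in nonpolysome, the 4th in polysome and the 2nd in total RNA. Of the nearest other ends in nonpolysome RNA, those at +1 and +2 changed by 0.66 and 0.29, and those 3, 4 and 5 nt short by 1.49, 2.30 and 3.05.

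**Figure D2:**
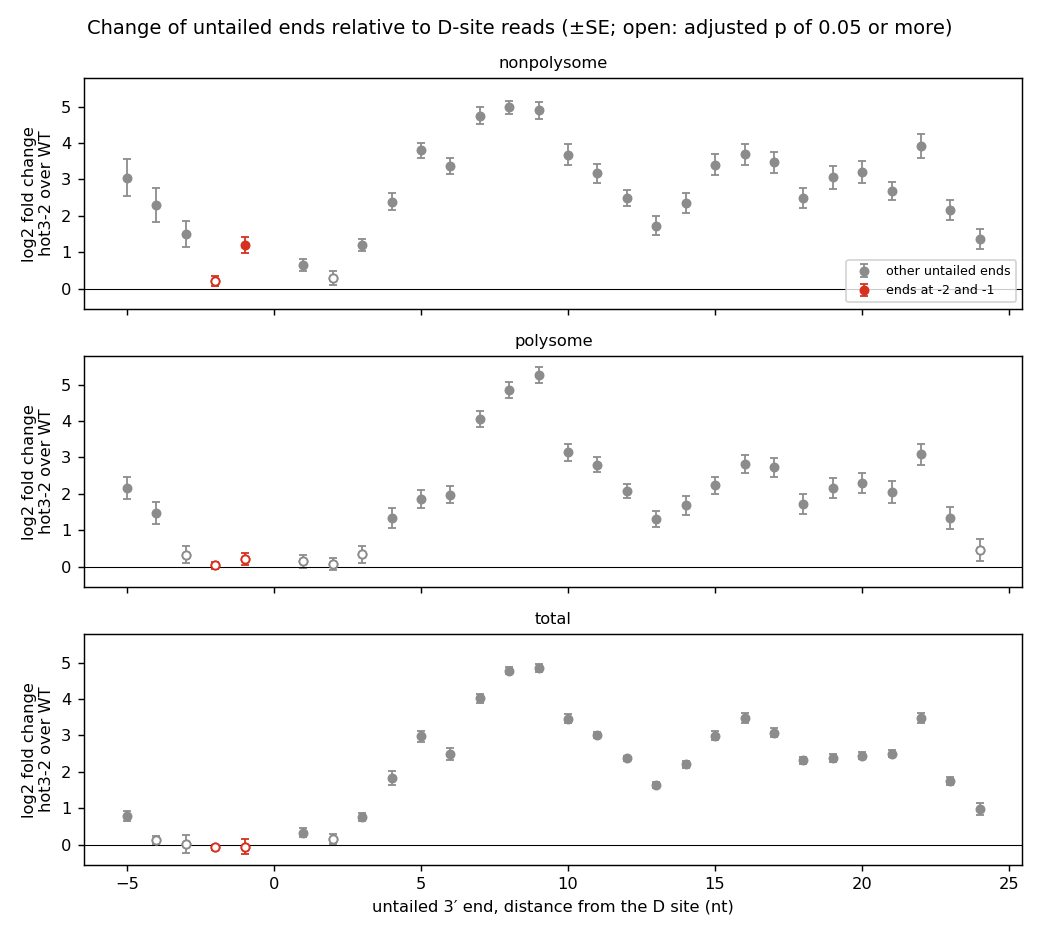
Log2 fold change (hot3-2 over WT, ± SE, relative to D-site reads) of each untailed end against its distance from the D site, in nonpolysome, polysome and total RNA. Filled points have an edgeR adjusted p under 0.05. The ends at -2 and -1 lie at 0.21 and 1.20 in nonpolysome RNA and near 0 in the other 2, while the median of all ends is 2.68 in nonpolysome RNA. The values depend on the scaling: under TMM these 2 ends lie at -2.47 and -1.52 in nonpolysome RNA.

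The effect of hot3-2 on untailed -1 ends differed between the fractions. In a fit with both genotypes and 2 fractions, the log2 fold change of hot3-2 over WT was 0.99 greater in nonpolysome than in polysome RNA (SE 0.31, adjusted p = 0.0271, edgeR) and 1.25 greater than in total RNA (SE 0.33, adjusted p = 0.0125). It differed by 0.26 between polysome and total RNA, which did not pass the test (adjusted p = 0.475). Without a replicate block, the first difference lost its call when any of 6 libraries was left out, with values down to 0.82 (adjusted p up to 0.0818). These were replicates 1 and 3 of hot3-2 nonpolysome, replicate 2 of hot3-2 polysome, replicates 1 and 2 of WT nonpolysome and replicate 4 of WT polysome. Nonpolysome and polysome libraries of hot3-2 were paired by number in the pairing check, those of WT were not. Within numbers, the nonpolysome level of -1 was 4.83, 3.79, 4.42 and 3.44 times the polysome level in hot3-2, against 2.38, 2.29, 2.14 and 1.79 times in WT, with no overlap. With the replicate number as a block within each genotype, an alternative chosen after seeing the data, the difference was 0.93 (adjusted p = 0.000649, edgeR). That block also pairs the WT libraries, which the pairing check did not allow, so its p-value carries this limit. The second difference kept its call without any single library, but was 0.65 with replicates 2 and 4 alone (adjusted p = 0.274). For all untailed positions the shares called in these 3 fits were 17.2%, 24.1% and 13.8%. At -2 none of the 3 differences passed (0.18, 0.29 and 0.11).

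The second question was whether loss of DCL2 and DCL4 moved the short ends. None of the 12 values of untailed ends was called, and 1 had an unadjusted p under 0.05. It was untailed -1 in nonpolysome RNA, at 2.62%, 2.25%, 2.85% and 2.90% in hot3-2 dcl2 dcl4 and 5.21%, 2.703%, 5.52% and 3.12% in hot3-2. The libraries overlapped, and the log2 fold change was -0.64 (SE 0.23, adjusted p = 0.1003, edgeR). It was -0.97 with replicates 1 and 3 alone, where it passed the test (adjusted p = 0.00026), and -0.18 with replicates 2 and 4 alone. Its values without any single library ran from -0.80 to -0.47, and it was called without replicate 2 of hot3-2 nonpolysome only (adjusted p = 0.0172). DESeq2 with D-site size factors also called none of the 12. Of all untailed positions 0%, 6.9% and 0% were called in nonpolysome, polysome and total RNA of hot3-2 dcl2 dcl4 over hot3-2, and 0%, 0% and 0% in dcl2 dcl4 over WT. The other 11 values lay between -0.22 and 0.19. Whether the HOT3 effect on -1 depended on DCL2 and DCL4 was tested in one fit: the effect in nonpolysome RNA was 0.67 smaller with dcl2 dcl4 than without (log2 difference -0.67, SE 0.27, adjusted p = 0.298, edgeR), where 0% of positions were called, as also in polysome (0%) and total RNA (0%). With the replicate number as a block, where the pairing check allowed it, hot3-2 dcl2 dcl4 over hot3-2 in total RNA was called at -1 (0.19, adjusted p = 0.000848) and -2 (0.10, adjusted p = 0.00201). So was dcl2 dcl4 over WT at -2, with -0.07 in nonpolysome (adjusted p = 0.0145) and -0.06 in polysome RNA (adjusted p = 0.038).

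The clearest pattern of the short ends was their distribution over the gradient, and it was present in all 4 genotypes. The 16 nonpolysome libraries had untailed -1 ends of 1.53% to 5.52%, against 0.497% to 1.25% in the 32 polysome and total libraries, with no overlap. In nonpolysome over polysome RNA the log2 fold changes of -1 were 1.65 (SE 0.12) in hot3-2 dcl2 dcl4, 2.07 (SE 0.26) in hot3-2, 1.20 (SE 0.13) in dcl2 dcl4 and 1.08 (SE 0.13) in WT. Their adjusted p ran from 1.66e-10 to 1.56e-05 (edgeR). In WT the libraries stood at 1.70%, 1.71%, 1.83% and 1.97% in nonpolysome RNA, against 0.716%, 0.747%, 0.857% and 1.10% in polysome RNA. In dcl2 dcl4 they stood at 1.69%, 1.53%, 2.01% and 2.13% in nonpolysome RNA, against 0.772%, 0.558%, 0.981% and 0.895% in polysome RNA. No genotype had overlapping fractions.

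The ends at -2 shifted the same way by far less. In WT they averaged 4.45% ± 0.136 in nonpolysome, 3.76% ± 0.185 in polysome and 3.83% ± 0.219 in total RNA (SD, n = 4 each). In hot3-2 dcl2 dcl4 the averages were 4.56% ± 0.213, 3.70% ± 0.0789 and 3.89% ± 0.169 in the same order. Nonpolysome over polysome gave 0.30, 0.42, 0.24 and 0.24 in hot3-2 dcl2 dcl4, hot3-2, dcl2 dcl4 and WT, each called and with no overlap within a genotype (adjusted p from 0.000156 to 0.00738, edgeR). Relative to the typical end position the direction was the opposite one at -2: TMM scaling gave -2.10, -1.78, -1.41 and -1.13, and for -1 it gave -0.77, -0.17, -0.49 and -0.27. In these fits 96.6%, 96.6%, 89.7% and 86.2% of all untailed positions were called, all higher in nonpolysome RNA, with median log2 fold changes of 2.83, 2.72, 2.04 and 1.96. Both short ends were therefore less enriched in nonpolysome over polysome RNA than the typical end was.

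Against total lysate, -1 stood differently among the positions. At -1 nonpolysome over total RNA gave a log2 fold change of 1.62 (SE 0.16) in hot3-2 dcl2 dcl4, 2.46 (SE 0.27) in hot3-2, 1.18 (SE 0.17) in dcl2 dcl4 and 1.20 (SE 0.18) in WT, with adjusted p from 4.25e-08 to 0.000173 (edgeR). Counted from the lowest, these were the 26th, 27th, 23rd and 27th of 29 positions, where the medians over all positions were 1.17, 1.15, 0.97 and 0.77. The same ends thus ranked near the bottom when hot3-2 was set against WT and near the top when nonpolysome was set against total RNA. At -2 the values were 0.23, 0.50, 0.18 and 0.21, among the 3 lowest in each genotype. All 4 passed the test, but that of dcl2 dcl4 narrowly (adjusted p = 0.048), and it lost its call without any of 7 of the 8 libraries (adjusted p up to 0.115). The call was also lost in WT without replicate 3 or 4 of nonpolysome RNA (adjusted p up to 0.0636), and in hot3-2 dcl2 dcl4 without replicate 1 of total RNA (adjusted p = 0.0686). TMM scaling turned the 4 values of -2 to -0.83, -0.61, -0.69 and -0.46 and left those of -1 positive, at 0.56, 1.32, 0.31 and 0.53, of which those of dcl2 dcl4 and WT no longer passed (adjusted p = 0.0618 and 0.148). Of all positions 100%, 96.6%, 93.1% and 75.9% were called, all higher in nonpolysome RNA. The run through the gradient, named above, cannot be told apart from the fraction here.

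Polysome and total RNA had similar levels of both short ends, apart from -1 in hot3-2, where the means were 0.987% and 0.753%. None of the 8 log2 fold changes of polysome over total RNA was called without a block, and none had an unadjusted p under 0.05. They ran from -0.02 to 0.39 at -1 and from -0.07 to 0.08 at -2, while 79.3%, 79.3%, 65.5% and 65.5% of all untailed positions were called in hot3-2 dcl2 dcl4, hot3-2, dcl2 dcl4 and WT, most of them lower in polysome RNA. The largest value, 0.39 at -1 in hot3-2 (SE 0.20, adjusted p = 0.0845, edgeR), passed with the replicate block that the pairing check allowed there (0.39, adjusted p = 0.0129). So did -0.07 at -2 in hot3-2 dcl2 dcl4 (adjusted p = 0.0101).

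Almost all tailed reads at the short ends had the length of mature 18S rRNA: over all libraries 98.6% of the tailed reads at -1 carried 1 nt, and 95.2% of those at -2 carried 2 nt. Tailed -1 stood at 0.236% to 0.337% in nonpolysome RNA and 0.205% to 0.356% in the other libraries, and tailed -2 at 0.129% to 0.231% in nonpolysome RNA and 0.112% to 0.196% elsewhere. Across the gradient none of 24 fraction comparisons of the tailed short ends was called, none had an unadjusted p under 0.05, and DESeq2 with D-site size factors also called none. Their log2 fold changes lay between -0.17 and 0.22. Tails past the D site, a small part of these sums, are given apart below. In the fits of summed tails most tailed ends were called. The shares were 93.3%, 93.3%, 93.3% and 86.7% in nonpolysome over polysome RNA of hot3-2 dcl2 dcl4, hot3-2, dcl2 dcl4 and WT. They were 86.7%, 90%, 93.3% and 73.3% in nonpolysome over total RNA, and 66.7%, 70%, 80% and 75.9% in polysome over total RNA. With the replicate block, in comparisons that the pairing check allowed, 4 of the 24 were called: 0.14 at -1 in nonpolysome over total RNA of hot3-2 (adjusted p = 0.0364), 0.14 at -2 in nonpolysome over total RNA of dcl2 dcl4 (adjusted p = 0.0239), and 0.15 at -2 and -0.16 at -1 in polysome over total RNA of dcl2 dcl4 (adjusted p = 0.0441 and 0.036).

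Of the 12 tailed values in the comparisons for HOT3, 1 was called. Tailed -1 in total lysate stood at 0.250%, 0.290%, 0.227% and 0.229% in hot3-2, against 0.356%, 0.324%, 0.328% and 0.280% in WT. The libraries overlapped in that replicate 2 of hot3-2 lay above replicate 4 of WT. The log2 fold change was -0.37 (SE 0.13, adjusted p = 0.0222, edgeR). It lost its call without replicate 1, 3 or 4 of hot3-2 or replicate 1 of WT, with adjusted p up to 0.0784. In nonpolysome RNA the value was -0.19 and in polysome RNA -0.11, and neither passed the test, though the polysome value did with the replicate block that the pairing check allowed (-0.11, adjusted p = 0.00655). At -2 the tailed values in hot3-2 over WT were 0.10, 0.02 and -0.03 in nonpolysome, polysome and total RNA. In hot3-2 dcl2 dcl4 over dcl2 dcl4 no tailed value was called, with log2 fold changes from -0.14 to 0.27. Of all tailed positions 86.7%, 76.7% and 90% were called in nonpolysome, polysome and total RNA of hot3-2 over WT, and 83.3%, 76.7% and 83.3% in hot3-2 dcl2 dcl4 over dcl2 dcl4. The median log2 fold changes of hot3-2 over WT were 3.71, 3.27 and 3.55. For loss of DCL2 and DCL4 none of the 12 tailed values was called or had an unadjusted p under 0.05, and the shares over all tailed positions were 0%, 0% and 0% in hot3-2 dcl2 dcl4 over hot3-2 and 0%, 0% and 0% in dcl2 dcl4 over WT.

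The few tails that reached past the D site were counted apart. These were tails of 2 nt or more at -1 and of 3 nt or more at -2. Precursors that reach into ITS1 can fall among them when read with a changed base, and their part was not tested. A precursor ending at +1 or +2 and misread at the D site would count as a tail of 2 or 3 nt at -1. Precursors ending at +8 or +9 would count as tails of 9 or 10 nt there. In nonpolysome RNA of hot3-2 over WT the untailed ends at +1 and +2 changed by 0.66 and 0.29, and those at +8 and +9 by 4.98 and 4.90. Tails past the D site numbered 29 to 415 reads per library at -1 and 22 to 111 at -2. They were 0.00104% to 0.0195% of the D-site reads at -1 and are measured with far fewer reads than the untailed ends. At -1 in nonpolysome RNA they stood at 0.0195%, 0.0126%, 0.0158% and 0.0111% in hot3-2 dcl2 dcl4, at 0.00676%, 0.00726%, 0.00883% and 0.00683% in hot3-2, at 0.00348%, 0.00236%, 0.00305% and 0.00311% in dcl2 dcl4, and at 0.0032%, 0.0021%, 0.00371% and 0.00215% in WT. The 2 genotypes with hot3-2 lay above the 2 without it, and hot3-2 dcl2 dcl4 above hot3-2, with no overlap. For hot3-2 over WT the log2 fold change was 1.41 (SE 0.28, adjusted p = 0.000149, edgeR) in nonpolysome and 1.01 (SE 0.21, adjusted p = 0.00103) in total RNA. In polysome RNA it was 0.10 (adjusted p = 0.756). From polysome to nonpolysome RNA, these tails at -1 rose by 1.99, 1.76 and 1.21 in hot3-2 dcl2 dcl4, hot3-2 and dcl2 dcl4. The fractions did not overlap there (adjusted p of at most 2.82e-05, edgeR). In WT the value was 0.45 and not called (adjusted p = 0.169). At -2 the values were 0.90, 0.82, 0.84 and 0.75, with WT last. All were called, with overlap in dcl2 dcl4 and WT. The share over all positions in these fits is not given. In the fits of summed tails it was 93.3%, 93.3%, 93.3% and 86.7% in the same order of genotypes. The median log2 fold changes there were 2.28, 2.29, 1.95 and 1.94. These calls therefore cannot be read as particular to the short ends.

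For hot3-2 dcl2 dcl4 over dcl2 dcl4 the past-D tails at -1 rose in all 3 fractions, by 2.30 (SE 0.26) in nonpolysome, 1.51 (SE 0.23) in polysome and 1.70 (SE 0.16) in total RNA, with adjusted p from 3.06e-06 to 3.43e-05 (edgeR) and no overlap. At -2 they rose by 0.93, 0.88 and 1.17, again without overlap. At -2 in hot3-2 over WT only total RNA passed the test (0.71, SE 0.27, adjusted p = 0.0278), with overlapping libraries. Over all positions the shares called, with tails at these ends limited to those past the D site, were 90%, 83.3% and 96.7% in nonpolysome, polysome and total RNA of hot3-2 over WT, and 90%, 90% and 90% in hot3-2 dcl2 dcl4 over dcl2 dcl4. So these calls, like those of untailed -1, were shared with most ends. In the same fits the median log2 fold change over all positions was 3.705, 3.27 and 3.55 in nonpolysome, polysome and total RNA of hot3-2 over WT. It was 3.68, 2.71 and 3.59 in hot3-2 dcl2 dcl4 over dcl2 dcl4.

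Without a replicate block, past-D tails at -1 were called between hot3-2 dcl2 dcl4 and hot3-2, where no untailed or summed tailed value was. They stood at 0.00632%, 0.00733%, 0.0066% and 0.00673% in total RNA of hot3-2 dcl2 dcl4, against 0.00375%, 0.00335%, 0.00386% and 0.00498% in that of hot3-2. The groups did not overlap, and the log2 fold change was 0.76 (SE 0.15, adjusted p = 0.0219, edgeR). In nonpolysome RNA it was 0.99 (SE 0.21, adjusted p = 0.0361). In polysome RNA it was 0.76 (SE 0.26, adjusted p = 0.301) and not called, although the libraries did not overlap. Of all 30 positions 3.33%, 0% and 3.33% were called in nonpolysome, polysome and total RNA, and the called one was -1 each time. At -2 the values were 0.43, 0.35 and 0.41, none of them called. In dcl2 dcl4 over WT the past-D tails were called at neither end, and 0%, 0% and 0% of all positions were. There the values at -1 were 0.11 in nonpolysome and 0.07 in total RNA, and -0.65 in polysome RNA (unadjusted p = 0.0136, adjusted p = 0.19, edgeR), where the groups did not overlap.

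**Figure D3:**
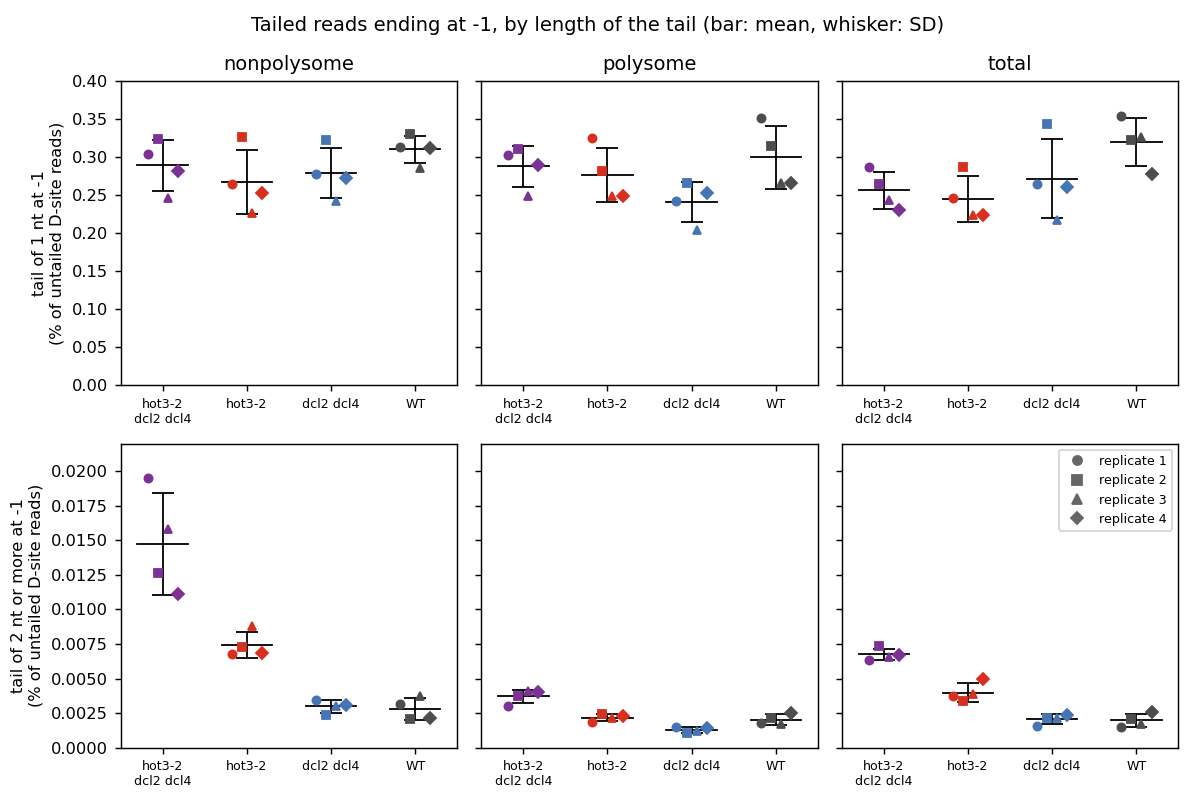
Tailed reads at -1 as a percentage of untailed D-site reads, split into tails of 1 nt (upper panels) and of 2 nt or more (lower panels, on a finer scale), for each library with mean and SD. The longer tails of the nonpolysome libraries lie between 0.0111% and 0.0195% in hot3-2 dcl2 dcl4 and between 0.00676% and 0.00883% in hot3-2, above dcl2 dcl4 and WT (0.0021% to 0.00371%).

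By single tail lengths, the 2 nt tail at -1 was the shortest past-D tail and had 10 or more reads in every library compared. Of the 20 tailed combinations of the short ends, 8 had enough reads for the test in nonpolysome RNA of hot3-2 and WT, 6 in polysome and 7 in total RNA, and 5, 0 and 3 of them were called, against 89.7%, 81.8% and 87.3% of all combinations. Several combinations passed the read minimum only through the group in which they were frequent, and the minimum thus favoured a difference in that direction. For those, reads are given with no test, but they are part of the counts of tested and called combinations above. In nonpolysome RNA, tails of 2 nt at -1 were read 52, 103, 45 and 75 times in hot3-2, against 48, 41, 30 and 29 times in WT. As reads per 1000000 untailed D-site reads this was 29.6, 33.5, 29.6 and 28.5 in hot3-2 and 15.7, 13.0, 17.1 and 12.7 in WT, without overlap. The log2 fold change was 1.05 (SE 0.29, adjusted p = 0.00343, edgeR). In total RNA it was 0.65 (adjusted p = 0.016), again without overlap, and in polysome RNA -0.07 (adjusted p = 0.868). The 1 nt tail at -1, the most abundant one, fell by 0.39 in total RNA (adjusted p = 0.00834), with overlapping libraries. Among the rare tails at -1 in nonpolysome RNA, the 3 nt tail was read 12 to 29 times per library in hot3-2 and 0 to 14 times in WT. The 10 nt class was read 41 to 54 times in hot3-2 and 2 to 14 times in WT, and whether it also holds longer tails is not stated.

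In hot3-2 dcl2 dcl4 over dcl2 dcl4, 12, 6 and 9 of the 20 combinations were tested in nonpolysome, polysome and total RNA, and 9, 2 and 5 were called, where 88.5%, 84.8% and 85.8% of all combinations were. The 2 nt tail at -1 rose by 1.88 (SE 0.33), 1.28 (SE 0.30) and 1.26 (SE 0.26), with adjusted p of at most 0.000426 (edgeR) and no overlap. The 3 nt tail at -1 in nonpolysome RNA was read 92, 59, 37 and 51 times in hot3-2 dcl2 dcl4, against 12, 5, 5 and 10 times in dcl2 dcl4. The 4 nt tail was read 13 to 53 times in hot3-2 dcl2 dcl4 and 1 to 6 times in dcl2 dcl4, and the 5 nt tail 16 to 23 and 1 to 3 times. These rare tails reached the read minimum in all libraries of hot3-2 dcl2 dcl4 but not in all of dcl2 dcl4. The counts of called combinations include them and others like them, so those counts depend in part on the read minimum. The mature-length tails did not pass in any of the 3 fractions: 1 nt at -1 changed by 0.05, 0.26 and -0.08, and 2 nt at -2 by -0.12, -0.16 and -0.02.

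At -2 the tail of 1 nt, which ends 1 nt short of mature length, also had 10 or more reads in every library compared. In nonpolysome RNA it stood at 172, 135, 186 and 117 reads per 1000000 untailed D-site reads in hot3-2, against 75.0, 60.5, 85.1 and 80.4 in WT. The groups did not overlap, and the log2 fold change was 1.02 (SE 0.28, adjusted p = 0.00387, edgeR). It was 0.79 (SE 0.27, adjusted p = 0.012) in hot3-2 dcl2 dcl4 over dcl2 dcl4, and did not pass in polysome or total RNA of either comparison (log2 fold changes of at most 0.26). It was chosen in hot3-2 over WT after its values were seen. Molecules with this tail have the length of untailed -1 ends, and whether the 2 moved alike was not tested. In nonpolysome over polysome RNA the 1 nt tail at -2 rose by 1.66, 1.68, 1.00 and 0.92 in hot3-2 dcl2 dcl4, hot3-2, dcl2 dcl4 and WT. The 2 nt tail at -1 rose by 1.43, 1.31 and 0.83 in the first 3 of these and was at 0.19 in WT (adjusted p = 0.527). Of the 20 combinations 12, 8, 5 and 6 were tested in the same comparisons and 9, 5, 2 and 2 called, against 94.4%, 94%, 90.1% and 81.6% of all combinations. Among the called ones of hot3-2 dcl2 dcl4 and hot3-2 are tails that reached the read minimum only through the nonpolysome libraries. A rarer tail at -2, the 10 nt class, was among those called in nonpolysome RNA of hot3-2 over WT. It was read 18 to 30 times per library in hot3-2 and 8 to 20 times in WT, with overlapping libraries. It had 10 or more reads in 3 of the 4 WT libraries.

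**Figure D4:**
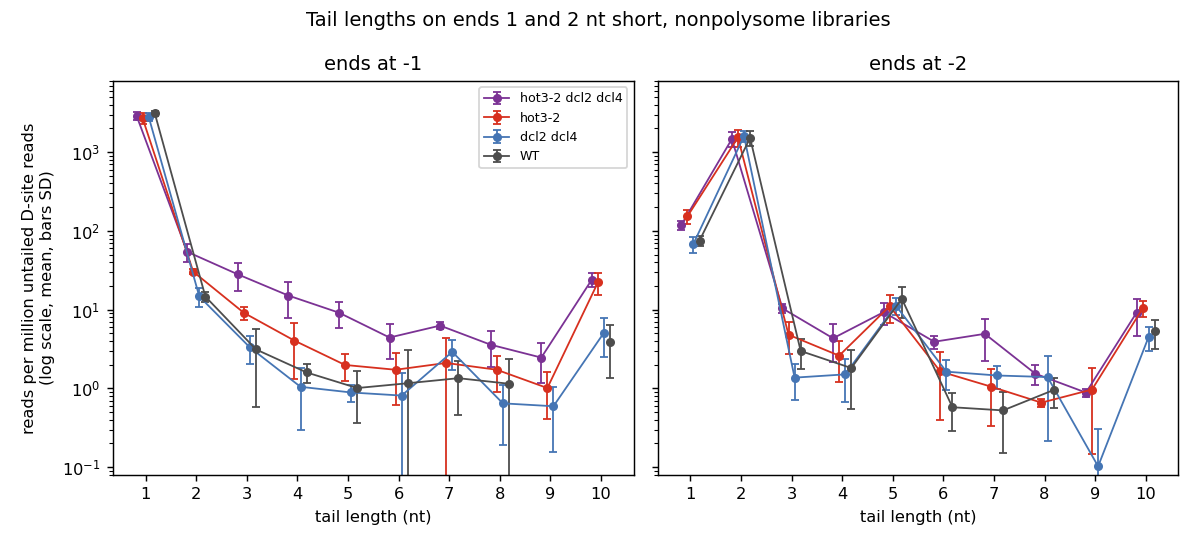
Mean reads per 1000000 untailed D-site reads (log scale, bars SD, n = 4 libraries) against tail length for ends at -1 (left) and -2 (right) in nonpolysome RNA of the 4 genotypes. Mature-length tails (1 nt at -1, 2 nt at -2) coincide at 2675 to 3100 and 1470 to 1602, while tails of 3 nt at -1 average 28.1 in hot3-2 dcl2 dcl4 and 9.12 in hot3-2, against 3.31 in dcl2 dcl4 and 3.13 in WT. A length with no reads is not drawn, and lower bars that reach the axis are open at the bottom.

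The composition of the short ends was compared with exact two-sided permutation tests, 16 in all. With 4 against 4 libraries the smallest p they can give is 0.0286, and no value passed after Benjamini-Hochberg adjustment (smallest adjusted p = 0.0653). In 7 of the 16 the groups did not overlap. An adjusted p under 0.05 would have needed more tests at the smallest p than these 7, so a missing call here does not mean no difference. In nonpolysome RNA the tailed share of all reads at -1 was 6.92% ± 3.10 in hot3-2 and 14.8% ± 1.35 in WT (SD, n = 4 each), and the ratio of untailed -2 to untailed -1 was 1.32 ± 0.288 in hot3-2 and 2.47 ± 0.0979 in WT. Both separated the genotypes without overlap (exact permutation p = 0.0286, adjusted p = 0.0653). Both measures contain the untailed -1 reads, so neither is separate from the rise of those reads. The same 2 measures were 6.92% ± 3.10 and 1.32 ± 0.288 in nonpolysome RNA of hot3-2, against 22.6% ± 4.82 and 4.00 ± 0.619 in its polysome RNA, again without overlap. The share of 1 nt tails among tailed reads at -1 was 97.2% ± 0.684 in nonpolysome RNA of hot3-2, against 99.1% ± 0.304 in that of WT. In total RNA it was 98.4% ± 0.427 in hot3-2 and 99.4% ± 0.215 in WT. The tailed share at -2 lay between 3.25% and 4.12% on average in all groups compared, with overlapping libraries in each of its 4 tests.

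The replicate number marked a shared difference between libraries of different groups. Tailed -2 was higher in replicates 3 and 4 than in replicates 1 and 2 in 12 of 12 groups. Tailed -1 was lower in replicates 3 and 4 than in replicates 1 and 2 in 10 of 12 groups. Untailed -1 was lowest in replicate 2 in 10 of 12 groups, and in 10 of 12 both replicates 3 and 4 lay above replicates 1 and 2. Nonpolysome and polysome RNA of hot3-2 were the exceptions, in which replicates 1 and 3 lay above 2 and 4. Over all untailed ends together, a split of 1 and 3 from 2 and 4 was more widespread. Replicates 1 and 3 were then nearest each other, as were 2 and 4, in both gradient fractions of WT, hot3-2 and hot3-2 dcl2 dcl4. The same held in nonpolysome RNA of dcl2 dcl4, but not in its polysome RNA or in total RNA of any genotype. What the numbers stand for is not given, and the part of preparation or sequencing in these differences was not tested.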

How the data were processed

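The deposited files hold counts: for each library, the reads at each 3′ end position (1886 to 1915) and nontemplated tail length (0 to 10 nt), as the authors made them from 18S-ENDseq reads, with no normalization. The submitters' processing notes name cutadapt 4.2 and STAR 2.7.10b. The alignment decides where the template ends and the tail begins, so positions and tails are not independent measures. Libraries held 1815545 to 6468532 reads. PCR reads carry no molecular identifiers.

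Counts were fitted with edgeR 4.0.16 (R 4.3.3), quasi-likelihood test, with the untailed D-site reads as library size and Benjamini-Hochberg adjustment over all positions of a fit. Rows needed 10 or more reads in at least 4 libraries. Untailed ends, tailed ends (tail lengths summed), tail-length rows and tails past the D site were fitted apart, each with only the groups compared. A call means an adjusted p under 0.05. The code was tested on simulated data. For shares and ratios, two-sided exact permutation tests were used (scipy 1.17.1). Alternatives were TMM and DESeq2 (1.42.0) scaling, other library sizes, no filter, single libraries left out, a replicate block, and replicates 1 and 3 or 2 and 4 alone. The differences of effects under other settings were added after seeing the data.

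All short ends are named in every comparison. Of tailed rows, those named were up to 3 called ones per comparison with the greatest change and no overlap, plus the most abundant tail at each end. A row that reached the minimum only through its higher group is given by its reads. The members and lists were chosen with earlier results of these data known. Replicate numbers come from the labels, which do not say what they mark. They were taken to pair libraries where every same-number correlation of deviations exceeded 0.1: in 6 of 12 genotype and 7 of 12 fraction comparisons of untailed ends, and in 9 of 12 and 10 of 12 of tailed ends. Untailed ends of hot3-2 over WT were not paired in any fraction.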

Additional observations from a re-analysis of the deposited data

Results flagged for a closer look

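The effect of hot3-2 on untailed ends at -1 differed between fractions when the difference itself was tested. The log2 fold change of hot3-2 over WT was 0.99 greater in nonpolysome than in polysome RNA (adjusted p = 0.0271, edgeR) and 1.25 greater in nonpolysome than in total RNA (adjusted p = 0.0125). The hot3-2 nonpolysome libraries of replicates 1 and 3 averaged 5.37%, and those of replicates 2 and 4 averaged 2.91%, against 1.77% and 1.84% in WT. Dixon's test marked no single library in 48 groups of values, of which chance would mark about 1 in 20. It looks for 1 library apart from the rest, and so cannot mark a group split into a high and a low pair.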

How the results depend on the processing

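Directions depend on the scaling, because most ends moved more than the short ends did. Under TMM, hot3-2 over WT at untailed -2 and -1 became -2.47 and -1.52 in nonpolysome and -1.93 and -1.74 in polysome RNA. In hot3-2 dcl2 dcl4 over dcl2 dcl4 the 2 ends became -2.14 and -1.73 in nonpolysome, -1.51 and -1.51 in polysome and -2.11 and -2.10 in total RNA. Nonpolysome over polysome became -2.10 and -0.77 in hot3-2 dcl2 dcl4, -1.78 and -0.17 in hot3-2, -1.41 and -0.49 in dcl2 dcl4, and -1.13 and -0.27 in WT. Nonpolysome over total at -2 became -0.83, -0.61, -0.69 and -0.46 in the same genotypes, and tailed -2 in hot3-2 over WT -3.43 in nonpolysome and -2.78 in polysome RNA. DESeq2 with median-of-ratios factors gave, in the same order, -2.71 and -1.78, -1.999 and -1.79, then -2.29 and -1.89, -1.59 and -1.57, -2.24 and -2.24, then -2.49 and -1.16, -2.22 and -0.63, -1.82 and -0.87, -1.62 and -0.77, then -0.93, -0.65, -0.79 and -0.49, and for tailed -2 -3.51 and -3.12. With all counted reads as library size, untailed -2 of hot3-2 over WT was -0.0712 in nonpolysome and -0.00837 in polysome RNA, hot3-2 dcl2 dcl4 over dcl2 dcl4 was -0.15 at -2 in nonpolysome and -0.0579 and -0.0385 at -2 and -1 in total RNA, and tailed -2 of hot3-2 over WT was -0.19 and -0.0275 in nonpolysome and polysome RNA.

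The number of short ends called moved as follows. For untailed ends and HOT3 it was 2 of 12, all higher. It was 12 with TMM and 12 with median-of-ratios factors, all of them lower. With all counted reads it was 4, of which 2 were lower. It was 4 with replicates 1 and 3 alone, all higher, and 6 with the replicate block, 1 of them lower. For untailed ends and DCL2 and DCL4 it was 0 of 12, but 1, 1, 2 and 4 with TMM, median-of-ratios factors, replicates 1 and 3 alone and the replicate block. Of these, 1, 1, 2 and 2 were lower. For untailed ends between fractions it was 16 of 24, all higher, and 10 with replicates 2 and 4 alone, but TMM gave 8 higher and 8 lower, and median-of-ratios factors 10 higher and 12 lower. For tailed ends and HOT3 it was 1 of 12, which was lower. It was 12 with TMM and 12 with median-of-ratios factors, all of them lower. It was 3 with the replicate block, 2 of them lower, and 9 with tails past the D site alone, all higher. It was 0 with replicates 1 and 3 alone, 0 with replicates 2 and 4 alone, and 0 to 1 with each replicate number left out in turn. For tailed ends and DCL2 and DCL4 it was 0 of 12 and 2 with tails past the D site alone. For tailed ends between fractions it was 0 of 24, but 23, 24, 5 and 17 with TMM, median-of-ratios factors, the replicate block and tails past the D site alone. Of these, 15, 16, 1 and 3 were lower. The replicate block ended no call. Apart from genotype comparisons of tails past the D site, the shares of all positions called under these settings are not given. The counts therefore cannot be read as a result about the short ends alone.

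With replicates 2 and 4 alone, hot3-2 over WT was 0.0119 at untailed -1 in total RNA, -0.0881 and -0.19 at -2 and -1 in polysome RNA, and -0.00795 at tailed -2 in nonpolysome RNA. With tails past the D site alone, tailed -2 and -1 were 0.71 and 1.01 in total RNA, and tailed -1 was 1.41 in nonpolysome and 0.10 in polysome RNA, while the tailed share at -1 in nonpolysome RNA of hot3-2 differed by 0.0468 percentage points from WT and by 0.000144 from polysome RNA. The difference of effects at -1, nonpolysome against polysome, was 0.74 with all counted reads (adjusted p = 0.0866) and 0.82 to 1.15 with single libraries left out, and that against total was 0.65 with replicates 2 and 4 alone and 1.09 to 1.42 with single libraries left out. Leaving out single libraries turned the sign of uncalled values only: untailed -1 of hot3-2 over WT in total RNA (-0.22 to 0.0759), -2 in polysome RNA (-0.0143 to 0.0823), -1 of hot3-2 dcl2 dcl4 over dcl2 dcl4 in total (-0.0512 to 0.23) and polysome RNA (-0.0604 to 0.19), and tailed -2 of hot3-2 over WT in total (-0.12 to 0.0402), nonpolysome (-0.0773 to 0.19) and polysome RNA (-0.0943 to 0.14). DESeq2 with D-site size factors lost nonpolysome over total at -2 in dcl2 dcl4 and WT (adjusted p = 0.0566 and 0.169), and the fit on all rows lost it in hot3-2 dcl2 dcl4 (adjusted p = 0.0539). The causes were not tested. Tails past the D site rest on 22 to 415 reads per library.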
